A study of Mus musculus with 6 samples.

Results

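Growth factor signals outside the IGF and VEGF families were followed through 6 genes: the ligands Tgfb1, Fgf2, Hgf and Egf and the receptors Fgfr4 and Pdgfrb. They were found by their gene symbols in the platform annotation, which gave each of the 6 genes 1 probe. They were thus 6 of the 203 named genes and 6 of the 223 probes in the table. The samples were 6 soleus muscles of C57Bl/6 mice, titled wild type, reloaded for 1 day, each hybridised to 1 array from 3 micrograms of total RNA of cryosections. The soleus is a postural muscle of the hindlimb. All 6 carried the same labels, which name no other treatment, genotype or age, and the titles' prefix HUR is not spelled out in them. The labels do not say that the samples came from separate animals, so the spreads and p-values measure differences between these samples, which may be technical. Muscle without reloading was not analysed here, and no value below is a change caused by reloading.

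These factors act on muscle through receptors that set kinase cascades in motion. TGF-beta 1 is secreted in a latent form, signals through serine/threonine kinase receptors and SMAD proteins, and drives matrix production while restraining myoblast differentiation. FGF2 and HGF are kept in the matrix of muscle and are known to activate satellite cells, the stem cells of the fibre, FGF2 through FGF receptors and HGF through the receptor MET. EGF binds the EGF receptor, and the PDGF receptor beta marks pericytes, vascular smooth muscle and fibroblasts between the fibres.

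Of the 6 genes, 3 gave signal on every array and 3 lay at the edge of detection. Tgfb1, Pdgfrb and Egf were above 0 on all 6 arrays, and so were 78.5% of all probes. The same 3 also exceeded each array's noise bound, the size of the most negative value on that array, as did 58.3% of all probes. Fgfr4 was above 0 on 5 arrays, Hgf on 4 and Fgf2 on 3. Replicate 1 had a bound of 0.0144, the size of the value of the Il1b probe there (-0.0144). The bounds of the other arrays ran from 0.0011 to 0.0028. A value at or under the bound leaves the level unknown and does not mean that the gene was silent.

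The arrays differed in overall brightness, and this touched every value in deposited units. The median of the 175 probes above 0 on all arrays was 0.0647 on replicate 1, 0.0099 on replicate 6 and between 0.015 and 0.0169 on replicates 2 to 5. The median-centred scale used below is the log2 intensity minus the log2 median of these 175 probes on the same array. Markers of muscle fibres gave signal throughout. All 5 markers of slow and oxidative fibres (Myh7, Myh2, Mb, Fabp3 and Des) and both of fast fibres (Myh1 and Myh4) exceeded the bound on all arrays. So did 5 of 5 endothelial markers in the table and 4 of 4 of pericytes and fibroblasts, Pdgfrb among them. Of 4 markers of myogenic precursors with a probe, Myod1 and Myog exceeded it on all 6 arrays, and Myf5 and Fgfr4 on 1 each. Of the myeloid markers only Il1b had a probe, which was above 0 on 0 arrays. In bulk muscle, fewer cells of a type and less RNA per cell cannot be told apart.

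Tgfb1 kept nearly the same place relative to the array median. Its deposited intensity was 0.0834 on replicate 1, 0.0174 on replicate 2, 0.0249 on replicate 3, 0.0285 on replicate 4, 0.0224 on replicate 5 and 0.0125 on replicate 6. Replicate 1 stood far above the rest and replicate 6 was lowest, as in the array medians. Replicate 1 exceeded replicate 6 by 6.67-fold for Tgfb1 and by 6.54-fold for the array median. Relative to the median probe, Tgfb1 stood between 1.16 and 1.75 times, lowest in replicate 2 and highest in replicate 4. Its median-centred log2 value was 0.47 ± 0.23 (SD, n = 6), a 1.51-fold range, of which 1.28-fold was left when each array's bound was added to the lowest and taken from the highest value.

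Pdgfrb, the receptor of mural and interstitial cells, also kept its place. It read 0.0714 on replicate 1, 0.0173 on replicate 2, 0.0202 on replicate 3, 0.0214 on replicate 4, 0.0247 on replicate 5 and 0.0115 on replicate 6. As multiples of the median probe these values lay between 1.10 in replicate 1 and 1.46 in replicate 5. The centred value was 0.32 ± 0.15 (SD, n = 6), a 1.32-fold range. With the same allowance for noise the range was 0.98-fold, so none of it was left. After median centring the median SD was 0.64. Only 2 of the 175 probes then had a smaller SD than Pdgfrb and 6 a smaller one than Tgfb1. These counts were 2 and 9 after quantile normalization and 35 and 39 after scaling to the summed intensity. They were 19 and 40 after scaling to the 28S ribosomal RNA probe and 40 and 46 without scaling.

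Egf, the ligand of the EGF receptor, differed less than the array median between the brightest and the dimmest array. It read 0.0157 on replicate 1, 0.0071 on replicate 2, 0.0059 on replicate 3, 0.0086 on replicate 4, 0.0122 on replicate 5 and 0.0101 on replicate 6. Its deposited values thus spanned 2.66-fold, while Tgfb1 and Pdgfrb spanned 6.67-fold and 6.21-fold. Replicate 1 exceeded replicate 6 by 1.55-fold for Egf, and 30 of the 175 kept probes (17.1%) had a lower fold between those arrays. Relative to the median probe, Egf stood at 0.243 times on replicate 1, between 0.383 and 0.722 times on replicates 2 to 5 and at 1.02 times on replicate 6. The centred value was -0.98 ± 0.72 (SD, n = 6), a 4.20-fold range, and 100 of the 175 probes varied less. On replicate 1, the lowest after centring, Egf was only 1.09 times the noise bound, and 1.95-fold of the range was left after the allowance for noise. On the other arrays it was between 2.27 and 9.18 times the bound. Without replicate 1 its SD was 0.56.

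**Figure D1:**
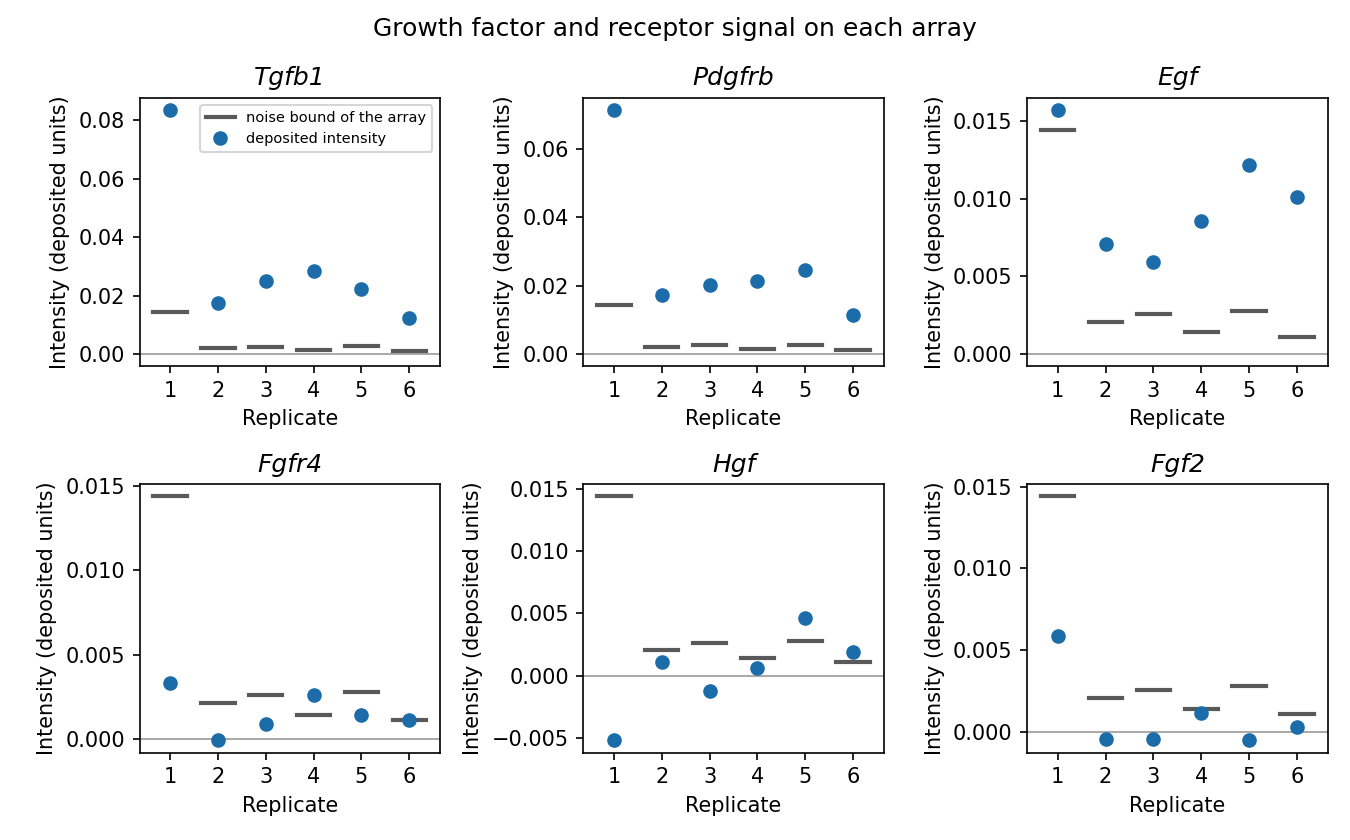
Deposited intensity (treated as linear) of each gene on the 6 arrays (points, x axis: replicate). A horizontal bar gives the noise bound of each array, and the vertical scales differ between panels. Tgfb1, Pdgfrb and Egf lie above the bound on all arrays, Egf on replicate 1 by only 1.09 times, while Fgfr4, Hgf and Fgf2 lie at or under it on most arrays.

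**Figure D2:**
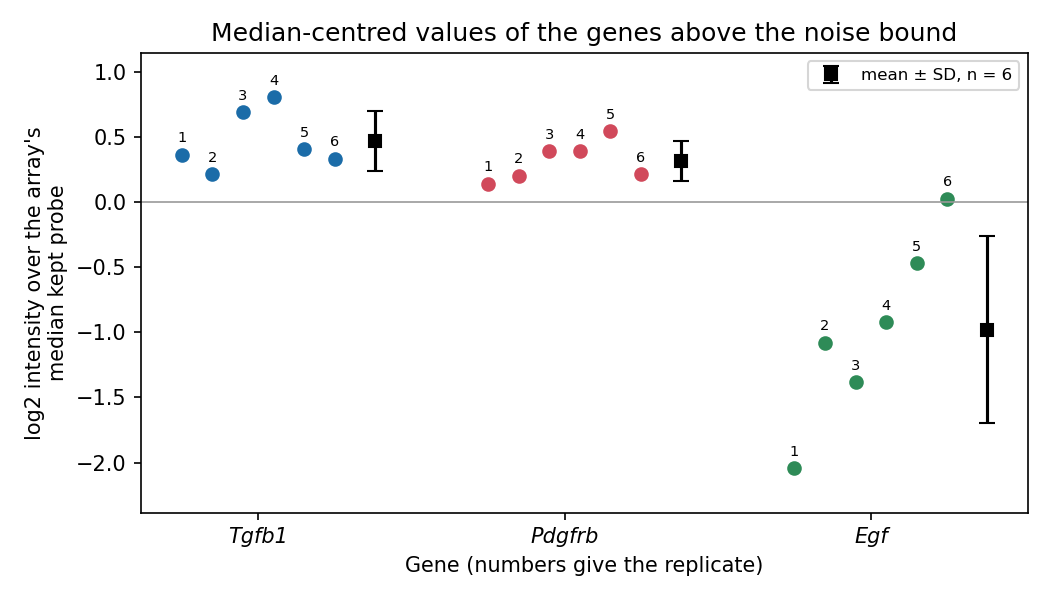
Log2 intensity over the median kept probe of the array (y axis) for the 3 genes above the noise bound, 1 point per array numbered by replicate, with the mean ± SD (n = 6) as a square and bar. Tgfb1 and Pdgfrb hold SDs of 0.23 and 0.15, and Egf spreads from -2.04 in replicate 1 to 0.03 in replicate 6; heights are not compared between genes.

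The stretches before the starts of Tgfb1 and Egf are shown because one of these ligands read evenly across the arrays after centring and the other did not. Which of them read more evenly depended on the scaling. Whether the sequences bear on it was not tested. RefSeq's promoter windows (build GRCm38.p6) covered 5 of the 6 genes, all but Pdgfrb. The bases run 5′ to 3′ along the gene and end at the base before its start, on chr7:25686752-25687001 (plus strand) for Tgfb1 and on chr3:129755323-129755572 (minus strand, the outermost of the listed starts) for Egf. Capitals mark matches to the letters of a GC box, GGGCGG, on either strand.
Tgfb1: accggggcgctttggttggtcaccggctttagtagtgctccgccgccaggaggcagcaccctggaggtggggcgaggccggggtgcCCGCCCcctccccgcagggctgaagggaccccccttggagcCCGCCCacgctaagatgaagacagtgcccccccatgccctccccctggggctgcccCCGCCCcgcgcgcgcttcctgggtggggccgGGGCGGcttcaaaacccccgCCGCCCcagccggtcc
Egf: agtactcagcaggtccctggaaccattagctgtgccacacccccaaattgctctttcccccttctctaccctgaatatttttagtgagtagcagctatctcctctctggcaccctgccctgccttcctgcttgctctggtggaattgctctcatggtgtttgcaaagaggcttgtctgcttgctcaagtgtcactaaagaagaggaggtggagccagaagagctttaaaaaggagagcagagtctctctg

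The Tgfb1 window held 5 such matches and 75.2% G and C, more than 96.1% of 32851 mouse windows of the same 250 bases. The Egf window held 0 matches and 50.4% G and C, close to the median of 52.4%. Over all windows 32.7% held the GC box letters. Neither window held the letters of an AP-1 site (TGANTCA), a cyclic AMP response element (TGACGTCA) or a TATA box (TATAAA), which 6.75%, 1.55% and 12.4% of all windows held on either strand. A match is a string of letters and not a measured binding site.

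The FGF and HGF genes gave too little signal for a spread on the log2 scale. Fgfr4, an FGF receptor of myogenic precursors, read 0.0033 on replicate 1, -0.0001 on replicate 2, 0.0009 on replicate 3, 0.0026 on replicate 4, 0.0014 on replicate 5 and 0.0011 on replicate 6. Only replicate 4 exceeded its bound, by 1.86 times, and replicate 6 equalled it. Hgf, the ligand that rouses satellite cells through MET, read -0.0052, 0.0011, -0.0012, 0.0006, 0.0046 and 0.0019 on replicates 1 to 6. Replicates 5 and 6 exceeded the bound, by 1.64 and 1.73 times, and replicate 1 was the lowest although it was the brightest array. Fgf2, a heparin-binding mitogen of myoblasts, read 0.0059, -0.0004, -0.0004, 0.0012, -0.0005 and 0.0003 on replicates 1 to 6. It exceeded the bound on 0 of 6 arrays, which also held for 30 of the 223 probes. The table has steps of 0.0001, so the lowest of these values rest on a few steps. The bound stood between 0.0859 and 0.223 times the array median, and differences between samples below that level were not detectable for Fgf2, Fgfr4 and Hgf.

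How steady the 3 measured genes looked depended on how the arrays were brought together, and the order turned around. After median centring Pdgfrb (SD 0.15) and Tgfb1 (0.23) varied least and Egf (0.72) most. Without any scaling Egf had the smallest SD of the 3 at 0.52, with 0.88 for Pdgfrb and 0.93 for Tgfb1, and only 4 of 175 probes varied less than Egf. Scaling to the 28S ribosomal RNA probe gave 0.51 for Egf, 0.64 for Pdgfrb and 0.78 for Tgfb1, with 3 probes below Egf, 28S itself included. Scaling to the summed intensity put Egf at 1.03, and the other genes at 0.37 each. After quantile normalization the values were 0.13 for Pdgfrb, 0.20 for Tgfb1 and 0.63 for Egf, which was then the median probe. With centring on only the 130 probes above the bound on all arrays, the median SD was 0.57. Of these probes 91 varied less than Egf (SD 0.72), 6 less than Tgfb1 and 1 less than Pdgfrb. After median centring, 2 of the 3 genes had an SD under that of the median probe, which holds for 49.7% of the 175 probes by construction. The 28S probe differed 2.13-fold between replicates 1 and 6, against 6.54-fold for the array median. Its values are whole hundredths on all 6 arrays, as in 0 other probes, and it is not known whether it was read in the same way.

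**Figure D3:**
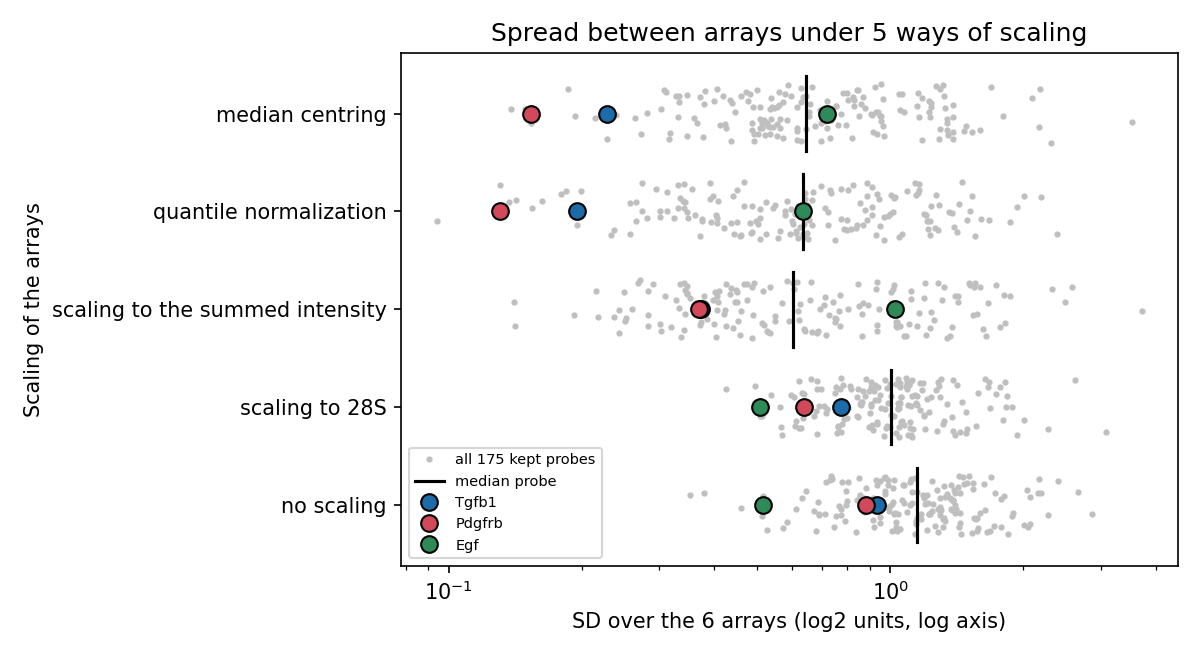
SD over the 6 arrays (x axis, log2 units on a log axis) of the 175 kept probes (grey) and of Tgfb1, Pdgfrb and Egf (coloured) under 5 ways of scaling the arrays, with the median probe as a vertical bar. Egf lies right of Pdgfrb and Tgfb1 under the first 3 and left of both under 28S scaling (0.51) and no scaling (0.52).

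Ratios of genes on the same array do not change when an array is multiplied by a factor, so they were compared next. Replicate 1 exceeded replicate 6 by 11.94-fold in the sum, 6.54-fold in the median and 2.13-fold for 28S. The arrays may thus differ by more than a factor, and whether the ratios moved with array brightness was not tested. The level of such a ratio between probes has no meaning, and only its movement between arrays is given. The log2 ratio of Pdgfrb to Tgfb1 had an SD of 0.20 over the 6 arrays and a 1.47-fold range, and 0.479% of all 15225 pairs of kept probes had a smaller SD. Those pairs include probes that, unlike these genes, did not exceed the bound on every array. The ratio of Egf to Tgfb1 had an SD of 0.78 (4.29-fold) and that of Egf to Pdgfrb 0.68 (3.99-fold), against 0.97 for the median pair. Both were lowest in replicate 1, the brightest array, and highest in replicate 6, the dimmest. Relative to its mean, the log2 ratio of Egf to Tgfb1 was -0.96, 0.16, -0.63, -0.28, 0.57 and 1.14 on replicates 1 to 6. Egf and Tgfb1 therefore varied unequally under every scaling by a factor. Without replicate 1, where Egf was close to the bound, the SD of the ratio of Egf to Tgfb1 was 0.70. Without replicate 6 the SD of the ratio to Tgfb1 was 0.61 and that of the ratio to Pdgfrb 0.46, the lowest of the values without 1 array.

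Ratios between these genes and partners in the same families had SDs under the 0.97 of the median pair. They were 0.60 for Egf to Egfr, 0.67 for Pdgfra to Pdgfrb and 0.83 for Pdgfb to Pdgfrb. Of all 15225 pairs of kept probes, 22.3%, 28.6% and 40.5% had a smaller SD. Those pairs again include probes that did not exceed the bound on every array, as the genes compared here did. Egfr, the receptor of EGF, stood at -0.57 ± 0.51 (SD, n = 6), lowest in replicate 1 at -1.52 and highest in replicate 3 at -0.15. The ratio of Egf to Egfr ranged 3.45-fold, lowest in replicate 3 and highest in replicate 6. Pdgfb, the PDGF chain that binds the beta receptor, stood at -1.10 ± 0.77, highest in replicate 1 at -0.35 and lowest in replicate 6 at -2.38. Its ratio to Pdgfrb ranged 4.31-fold, with replicates 1 and 2 highest at 0.92 and 0.82 and replicates 5 and 6 lowest at -0.70 and -1.18 around the mean. Pdgfra, the alpha receptor of interstitial progenitors, stood at -1.43 ± 0.54, and its ratio to Pdgfrb ranged 3.22-fold. The centred ranges left after the allowance for noise were 1.86-fold for Pdgfb, 1.29-fold for Egfr and 1.23-fold for Pdgfra. Pdgfa, the other PDGF chain, exceeded the bound on 0 of 6 arrays. Fgfr1, an FGF receptor of many tissues, exceeded it on all 6 and stood at -0.07 ± 0.32. Fgfr2, picked after its values were seen, ranged 6.05-fold and was highest in replicate 1 at 2.90 and lowest in replicate 6 at 0.30.

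**Figure D4:**
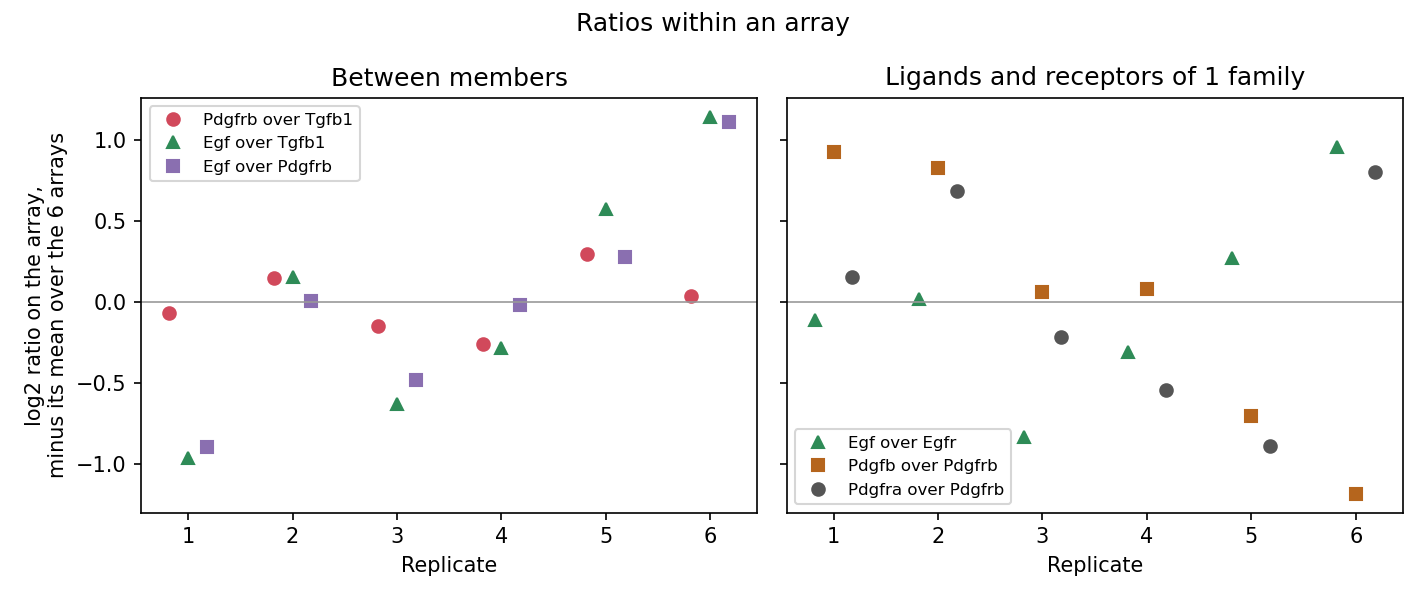
Log2 ratio of 2 genes on the same array minus its mean over the 6 arrays (y axis), by replicate (x axis); the left panel pairs Pdgfrb, Egf and Tgfb1 and the right panel ligands and receptors of the EGF and PDGF families. Pdgfrb over Tgfb1 stays between -0.26 and 0.30, while Egf over Tgfb1 runs from -0.96 in replicate 1 to 1.14 in replicate 6.

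Among 21 other genes of these pathways with a probe, 18 were above 0 and 12 above the bound on all 6 arrays, against 78.5% and 58.3% of all probes. The list held family members, proteases that release or activate the ligands, and genes known to respond to them. Of the 18 above 0 on all arrays, 10 had an SD under that of the median probe, against 49.7% of all kept probes. Plau, the urokinase that cleaves pro-HGF and plasminogen, exceeded the bound on 5 arrays and stood at -1.84 ± 0.42. Plat, the tissue plasminogen activator, exceeded it on 1. Plg, the plasminogen gene, exceeded it on 4 arrays and the FGF receptor gene Fgfr3 on 3. Of the 5 AP-1 genes, which code for transcription factors that respond to growth factors, Jun, Jund and Fosl2 exceeded it on all 6 arrays, Fosl1 on 4 and Junb on 0. The cyclin gene Ccnd1, the matrix genes Fn1 and Tnc and the inhibitor gene Timp1 also exceeded it on all 6, and the gelatinase genes Mmp2 and Mmp9 on 5 and 0.

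Pearson's r of the centred values over the 6 arrays was 0.50 for Tgfb1 and Pdgfrb (exact permutation p = 0.331, 0.602 after adjustment). Spearman's rho of this pair was 0.66 (exact permutation p = 0.175, 0.494 after adjustment), and r was 0.52 when replicates 3 and 4, which lay farthest out in Tgfb1, were dropped. For Egf and Pdgfrb r was 0.34 (exact permutation p = 0.501, 0.73 after adjustment) and rho 0.54 (exact permutation p = 0.297, 0.614 after adjustment), with r = 0.62 without replicates 1 and 6. For Tgfb1 and Egf r was -0.12 (exact permutation p = 0.819, 0.913 after adjustment) and rho -0.09 (exact permutation p = 0.919, 0.971 after adjustment), with r = 0.08 without replicates 3 and 4. All p-values were two-sided, over the 720 orders of the arrays, and adjusted over all 15225 pairs of kept probes. Of these pairs 0, or 0%, passed the adjusted threshold of 0.05 by r and 0 by rho, and 2874 (18.9%) had an unadjusted p under 0.05 by r and 1938 by rho. The smallest exact permutation p that 720 orders allow is 0.00139. A pair could thus pass only if many pairs came near that value together. In a design of 6 arrays these p-values do not show that the genes varied independently. The centred range of Pdgfrb lay within the allowance for noise. The sign for Tgfb1 and Egf depended on the scaling, with r = 0.55 without scaling, 0.32 after scaling to 28S and 0.77 after scaling to the summed intensity. The size of r for the other pairs depended on it too. For Tgfb1 and Pdgfrb r was 0.98 without scaling and after scaling to 28S, 0.85 after scaling to the sum and 0.37 after quantile normalization. For Egf and Pdgfrb it was 0.96 after scaling to the sum and 0.05 with all probes kept and values raised to the noise bound. Of the 3 pairs 0 passed after adjustment under any of these.

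The pairs across a family gave r = 0.57 for Egf and Egfr (exact permutation p = 0.249, 0.524 after adjustment) and rho = 0.20 (exact permutation p = 0.714, 0.878 after adjustment). Dropping replicates 1 and 6 turned r to -0.12, so it rested on those arrays. For the PDGF receptors Pdgfra and Pdgfrb r was -0.78 (exact permutation p = 0.0889, 0.33 after adjustment) and rho -0.77 (exact permutation p = 0.103, 0.4 after adjustment), with r = -0.87 without replicates 2 and 6. For Pdgfb and Pdgfrb r was -0.28 (exact permutation p = 0.578, 0.781 after adjustment), rho was -0.60 (exact permutation p = 0.242, 0.566 after adjustment), and r was -0.99 over the 4 arrays left without replicates 5 and 6. The r without 2 arrays carry no test. None of the centred range of Pdgfrb was left after the allowance for noise (0.98-fold), and whether its r go beyond noise was not tested.

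The overall signal of the array, the log2 median of the kept probes, was set beside the centred values, with which it shares that median. Egf had r = -0.83 with it (exact permutation p = 0.0486, 0.326 after adjustment) and rho = -0.49 (exact permutation p = 0.356, 0.72 after adjustment). Dropping replicates 1 and 6 turned r to 0.83, so the direction rested on the brightest and the dimmest array. With the log2 summed intensity in place of the median, r was -0.93 (exact permutation p = 0.00278, 0.0608 after adjustment), on a scale where 56 of the 175 probes (32%) had an unadjusted p under 0.05 and 0 passed after adjustment. Tgfb1 had r = -0.10 (exact permutation p = 0.846, 0.9 after adjustment) and rho = 0.43 (exact permutation p = 0.419, 0.72 after adjustment). Pdgfrb had r = -0.36 (exact permutation p = 0.558, 0.698 after adjustment) and rho = 0.09 (exact permutation p = 0.919, 0.946 after adjustment). With both of those arrays dropped, r was 0.29 for Tgfb1 and 0.90 for Pdgfrb, without a test. The centred range of Pdgfrb lay within the allowance for noise. With the log2 median, 0 of the 175 probes passed after adjustment and 18 (10.3%) had an unadjusted p under 0.05. The part of overall signal in the spread of Egf was not tested.

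The genes whose centred values were most like those of Tgfb1, Pdgfrb and Egf were named next. They were the 3 with the highest r over the 6 arrays among 122 other genes above the noise bound, and as they were picked by r they carry no test. For Tgfb1 they were Cd34, a glycoprotein of progenitors and vessels (r = 0.92, rho = 0.94), the matrix protein gene Tnxb (r = 0.92, rho = 0.83) and the membrane-bound metalloproteinase Mmp14 (r = 0.89, rho = 0.89). Without replicates 3 and 4 these r were 0.27, 0.66 and 0.69. For Pdgfrb they were the cell cycle regulator Rb1 (r = 0.83, rho = 0.77), the endothelial cadherin Cdh5 (r = 0.82, rho = 0.77) and again Mmp14 (r = 0.82, rho = 0.71), with 0.87, 0.91 and 0.99 without replicates 1 and 5. For Egf they were the ephrin ligand Efnb2 (r = 0.99, rho = 0.94), the angiogenin gene Ang (r = 0.98, rho = 0.94) and the cytokine receptor chain Csf2rb2 (r = 0.97, rho = 0.94), with 0.95, 0.96 and 0.94 without replicates 1 and 6. These 3 also varied widely after centring, with SDs of 0.93, 1.54 and 1.27. The centred range of Pdgfrb lay within the allowance for noise, and whether its r go beyond noise was not tested.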

How the data were processed

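Expression was measured on arrays in 6 samples of 1 group. The values table covers 223 probes with 0 missing values. Scanner, background method and normalization are not given in the sources used here. Values from the authors' deposit were treated as linear intensities. This is an assumption, and the log2 values, folds and ratios rest on it. Each array held values below 0, and arrays summed to between 13.8 and 165.3. Precision is limited by the number of arrays.

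Probes were named from the platform annotation, which gave 1 gene to 205 probes and none to 18. All 6 genes matched a current mouse gene by identifier. Only Fn1 and Igf1 have more than 1 probe, and the brighter one stood for the gene. Probes above 0 on all arrays were converted to log2 with no pseudocount and centred on each array's median. Correlations were tested by exact permutation and adjusted by Benjamini and Hochberg over all pairs or probes. Alternatives were no scaling, quantile normalization, scaling to 28S or to the sum, other filters, Spearman's rho, and leaving out each array. Ratios within an array and the allowance for noise were added after seeing the data.

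The genes and lists were chosen with earlier results of these data known. The genes named with values were the 6 members, their partners Fgfr1, Egfr, Pdgfa, Pdgfb, Pdgfra, Plau and Plat, and the 3 genes most alike to each member above the bound. The rest of the pathway list is given by counts, except Fgfr2. The calculations were tested on simulated data. Python 3.11.15, numpy 2.4.6, pandas 2.3.3 and scipy 1.17.1 were used.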

Additional observations from a re-analysis of the deposited data

Results flagged for a closer look

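Of 15 sets of 6 values, 3 held an array that stood apart from the next by more than Dixon's critical share of the range at 95%, which chance gives in about 1 in 20. All were deposited intensities with replicate 1 highest. Replicate 1 was also the brightest array, with a median of 0.0647 against 0.0169 on replicate 5, the next. The 3 flags are therefore not independent of each other. The gap was 0.78 of the range for Pdgfrb, 0.774 for Tgfb1 and 0.734 for Fgf2, whose value there was under the noise bound. After median centring the gaps of Pdgfrb and Tgfb1 were 0.382 and 0.207. Egf had 0.357 in deposited units and 0.318 after centring.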

How the results depend on the processing

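Of 112 recalculated values, 101 kept their direction and side of the threshold or moved less than the spread between arrays, 6 moved further and 5 changed sign. The 101 include the SD of Egf at 0.51 after scaling to 28S and 1.03 after scaling to the sum, against 0.72. They also include r of Egf and Pdgfrb at 0.96 after scaling to the sum and 0.05 with values raised to the noise bound. The order of the SDs is therefore not covered by this count. The count of genes with an SD under the median probe was 2, and 4 with all probes kept and values raised to the noise bound, since Fgf2 and Fgfr4 then entered near the bound. The SD rose without scaling to 0.93 for Tgfb1 and 0.88 for Pdgfrb, after scaling to 28S to 0.78 and 0.64, and after scaling to the sum to 0.37 for Pdgfrb. The sign changes were those of r for Tgfb1 and Egf, at 0.546 without scaling, 0.315 after scaling to 28S and 0.765 after scaling to the sum, and of the correlation with overall signal by rho, at 0.429 for Tgfb1 and 0.0857 for Pdgfrb; the cause was not tested. Without 1 array in turn, 3 to 4 genes were above 0 on all arrays left, with Fgfr4 added when replicate 2 was left out, and 2 to 3 had an SD under the median probe. Signal over background limits Fgf2, Fgfr4 and Hgf on most arrays and Egf on replicate 1.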
